A study of Homo sapiens with 6 samples.

Results

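DNA replication and cell cycle genes were examined as a set of 47 genes, of the 60240 genes listed in the count table of WT and LSD1 KO HCT116 cells. They were chosen by symbol from 4 functions, namely E2F and RB control, CDK inhibition, DNA replication and mitosis, with earlier results of these data known, and the rule itself used no expression value. All 47 were matched through their Ensembl identifiers, and all 47 were among the 17672 genes with enough counts to be tested. By the known peak of their transcripts, 22 were classed as S phase genes, with genes of the G1/S transition included, and 17 as M phase genes. The other 8 belonged to neither class (RB1, CDKN2A, CDKN2B, CDKN1B, CCND1, CDK2, CDK4 and CDK6).

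HCT116 is a human colorectal carcinoma cell line. The series held 3 libraries of polyA RNA from wild-type (WT) cells and 3 from cells in which LSD1, the histone demethylase encoded by KDM1A, had been knocked out (LSD1 KO). By the study's methods, LSD1 KO cells were made with a Cas9 guide against exon 1, selected with puromycin and expanded as individual clones. The sources do not say how many clones the 3 libraries came from or whether the replicates were separate cultures, so p values measure the spread between libraries only. Both groups carried the replicate numbers 1, 2 and 3. Total counts ranged from 25379279 to 29186963 per library, where 3 counts correspond to 0.103 to 0.118 CPM (counts scaled to library size, counting error only).

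The cell cycle is driven by cyclin-dependent kinases (CDKs). In G1, cyclin D with CDK4 or CDK6 and cyclin E with CDK2 phosphorylate RB, which releases E2F factors to transcribe the genes for origin licensing and DNA synthesis. Later, B-MYB (MYBL2) and FOXM1 act with the MuvB complex on mitotic genes, and CDK inhibitors of the INK4 and CIP/KIP families hold the kinases back. E2F sites and the CHR element are the promoter sequences best known for S phase and M phase transcription, respectively.

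These elements were searched for because they are read from sequence and not from expression. RefSeq promoters (GRCh38.p14) were found for 38 of the 47 genes, 18 of S phase, 14 of M phase and 6 of neither class, and the 250 bases before the start were read on both strands. An E2F-like element (TTTCCCGC, TTTCGCGC, TTTGCCGC or TTTGGCGC) stood in 9 of 18 S phase promoters (50%) and in 0 of 14 M phase promoters, against 2.79% of 27305 promoters. The CHR element (TTTGAA) stood in 8 of 14 M phase promoters (57.1%) and 1 of 18 S phase promoters (5.56%), against 13.6% of all. CCAAT stood in 55.6%, 85.7% and 33% in the same order of S phase, M phase and all promoters. Of the 6 promoters of neither class, 0 held an E2F-like element, 0 a CHR element and 1 CCAAT. The sequences chosen are an MCM helicase and an E2F promoter with E2F-like elements in capitals, and the promoters of MKI67 and CDC20 with CHR elements in capitals. In MCM6 each marked run is an overlap of elements on opposite strands.
MCM6 (chr2:135876444-135876693, minus strand): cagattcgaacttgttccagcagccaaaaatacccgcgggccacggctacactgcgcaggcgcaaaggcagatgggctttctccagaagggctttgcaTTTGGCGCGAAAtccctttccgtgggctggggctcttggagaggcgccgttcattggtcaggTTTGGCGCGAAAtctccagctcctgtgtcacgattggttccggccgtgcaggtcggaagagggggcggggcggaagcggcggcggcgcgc
E2F1 (chr20:33686386-33686635, minus strand): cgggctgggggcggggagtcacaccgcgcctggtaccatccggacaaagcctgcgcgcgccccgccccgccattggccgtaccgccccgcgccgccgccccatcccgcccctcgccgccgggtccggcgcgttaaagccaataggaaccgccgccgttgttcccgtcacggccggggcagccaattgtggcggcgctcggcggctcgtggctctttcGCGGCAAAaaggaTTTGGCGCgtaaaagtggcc
MKI67 (chr10:128126424-128126673, minus strand): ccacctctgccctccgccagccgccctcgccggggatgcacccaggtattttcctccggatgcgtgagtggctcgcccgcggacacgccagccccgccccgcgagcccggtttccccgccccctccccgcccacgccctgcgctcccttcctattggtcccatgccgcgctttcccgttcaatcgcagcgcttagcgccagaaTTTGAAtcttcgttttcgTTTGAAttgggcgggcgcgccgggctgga
CDC20 (chr1:43358731-43358980, plus strand): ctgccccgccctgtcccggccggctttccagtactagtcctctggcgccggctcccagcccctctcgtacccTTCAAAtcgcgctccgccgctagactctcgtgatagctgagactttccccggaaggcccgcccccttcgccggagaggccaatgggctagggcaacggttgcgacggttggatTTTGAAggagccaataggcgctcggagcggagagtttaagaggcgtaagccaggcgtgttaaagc

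The knockout and the cell type were checked first. KDM1A stood at 231, 224 and 214 CPM in WT libraries 1, 2 and 3 and at 29.9, 27.6 and 27.8 CPM in LSD1 KO libraries 1, 2 and 3, so that LSD1 KO cells kept 12.7% of the WT level (log2 fold change -2.97, edgeR q = 0.000451). Of the colorectal epithelium markers, KRT8, KRT18, KRT19, EPCAM, CDH1 and CDX2 were present in every library, whereas VIL1, KRT20, LGR5 and CEACAM5 stayed below 1 CPM. The summed level of the 10 markers was 2044 to 3820 CPM in WT and 2421 to 3161 CPM in LSD1 KO libraries. Summed fibroblast markers (8 genes) ranged from 21.5 to 24.8 CPM in WT and from 31.7 to 35.5 CPM in LSD1 KO libraries, nearly all of it COL1A1, with LUM at 0 and DCN at most 0.0757 CPM. Summed leukocyte markers (8 genes) ranged from 17.7 to 21.0 and from 23.6 to 34.7 CPM, nearly all of it CD68, with CD3E at 0 and PTPRC at 0 in every WT library. Endothelial markers (5 genes) ranged from 8.69 to 12.3 and from 7.65 to 11.4 CPM, nearly all of it ESAM, with CDH5 at 0 in every WT library. HEK293-like markers (6 genes) ranged from 17.6 to 19.7 and from 13.9 to 16.8 CPM, nearly all of it PAX2 and PAX8. NEFM, INA and SOX11 were at 0 in every library. PAX2 stood at 11.4 CPM or more in WT and at 9.39 CPM or less in LSD1 KO libraries, whereas the PAX8 ranges overlapped. Mitochondrial transcripts took 6.24% to 7.15% of WT and 6.56% to 8.70% of LSD1 KO counts. The part of these differences in the results on cell cycle genes was not tested.

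To ask whether LSD1 loss altered the cell cycle program, LSD1 KO and WT libraries were compared. All 22 S phase genes had log2 fold changes below 0, with a median of -0.25, whereas the 17 M phase genes lay around 0, with 10 below it and a median of -0.03. Of the genes of neither class, 6 of 8 were below 0, with a median of -0.24. Over all genes tested, the median was 0.00082 and 49.9% were below 0. Genes measured in the same 6 libraries are not independent replicates. In bulk RNA, fewer cells in a phase and less RNA per cell cannot be told apart. Singly, 0 of these 47 passed a q value threshold of 0.1 with edgeR (background 0.00566%, 1 gene, KDM1A) or with DESeq2 (background 0.376%). Without the block only CCNE2 reached an unadjusted p under 0.05 in edgeR, against 552 of all genes (3.12%).

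Libraries with the same replicate number deviated together. A model blocked on that number lowered the biological coefficient of variation from 0.279 to 0.133 and called 2 of the 47 genes, CCNE2 and CDK6, both lower in LSD1 KO cells (background 0.549% lower and 1.05% higher). The blocked model gave an unadjusted p under 0.05 in the lower direction for 17 genes (background 6.19%) and in the higher direction for 0 (background 7.24%). Of these 17, 11 were S phase genes, 1 was an M phase gene (FOXM1) and 5 belonged to neither class. DESeq2 with the block called 5 genes, all lower, which were CCNE2, CDK4, CDK6, MCM4 and MCM5 (background 1.68% lower and 2.53% higher). Within same-numbered pairs, all 3 pairs were lower in LSD1 KO for 25 of the 47 genes (background 17.5%), of which 15 were S phase, 5 M phase and 5 of neither class.

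**Figure D1:**
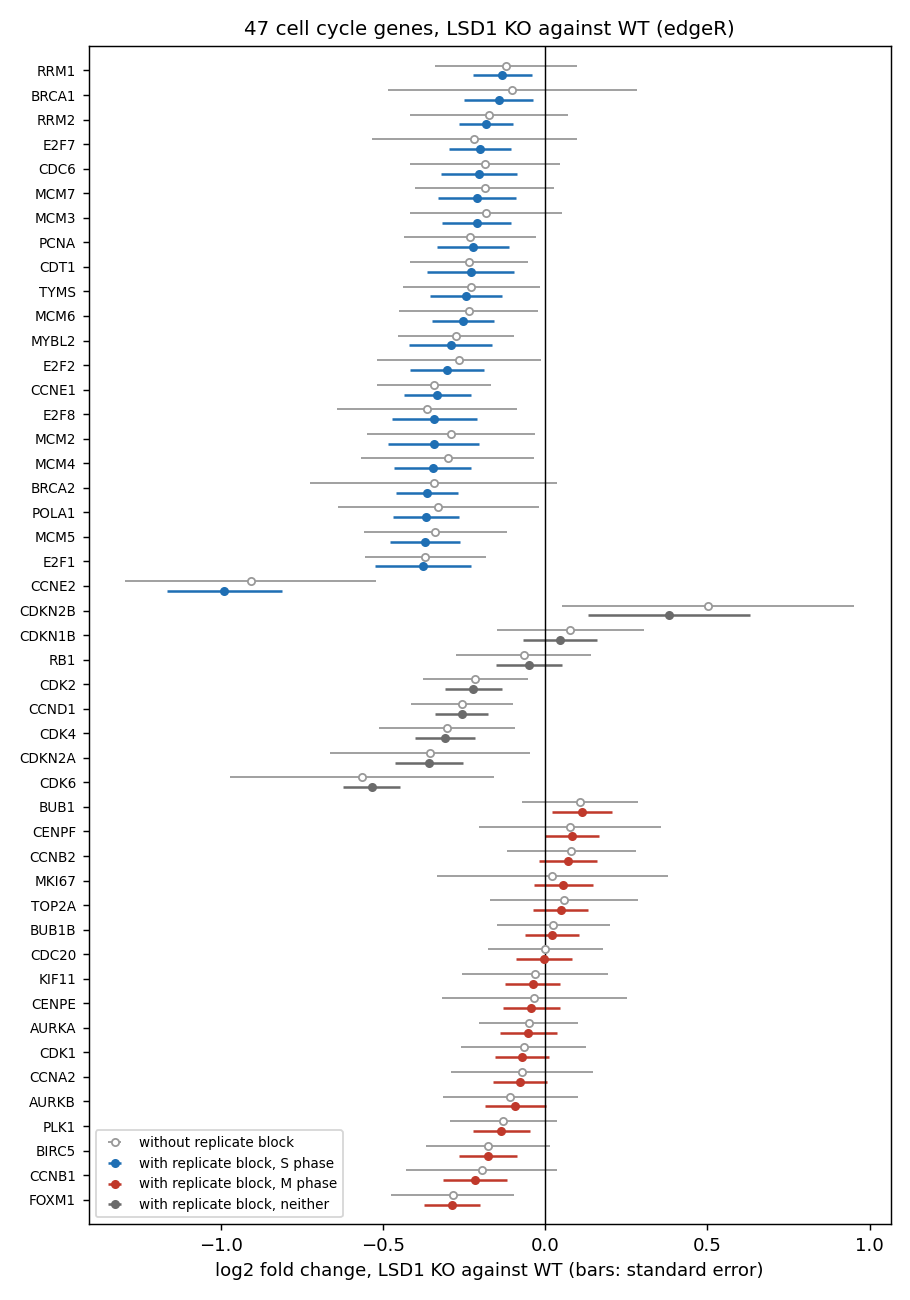
Log2 fold change of each of the 47 genes in LSD1 KO against WT cells (x axis, bars are standard errors), fitted by edgeR without a replicate block (open grey points) and with it (filled points, coloured by phase). All 22 S phase genes lie to the left of 0 in both fits, with CCNE2 farthest, while the 17 M phase genes lie around 0.

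The shift of the S phase genes was not equal in the 3 pairs. Their summed level was 4300, 3807 and 3329 CPM in WT libraries 1, 2 and 3 and 4226, 2747 and 2781 CPM in LSD1 KO libraries 1, 2 and 3. LSD1 KO library 1 lay within the WT range, and the other 2 lay below it. The median log2 difference was accordingly -0.05 in pair 1, -0.49 in pair 2 and -0.30 in pair 3. M phase genes summed to 3904, 3068 and 3311 CPM in WT and to 3958, 3022 and 3140 CPM in LSD1 KO libraries, with pair medians of 0.02, -0.06 and -0.11. The ratio of S phase to M phase sums was 1.10, 1.24 and 1.01 in WT and 1.07, 0.909 and 0.886 in LSD1 KO libraries. It was lower in LSD1 KO in each pair, but the groups overlapped, since LSD1 KO library 1 lay above WT library 3. Without WT library 1, 18 of 22 S phase genes stayed below 0. The S phase median was -0.13 without LSD1 KO library 2 and -0.15 without WT library 1, and -0.47 without LSD1 KO library 1. The M phase median moved between 0.09 without WT library 1 and -0.14 without LSD1 KO library 1.

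**Figure D2:**
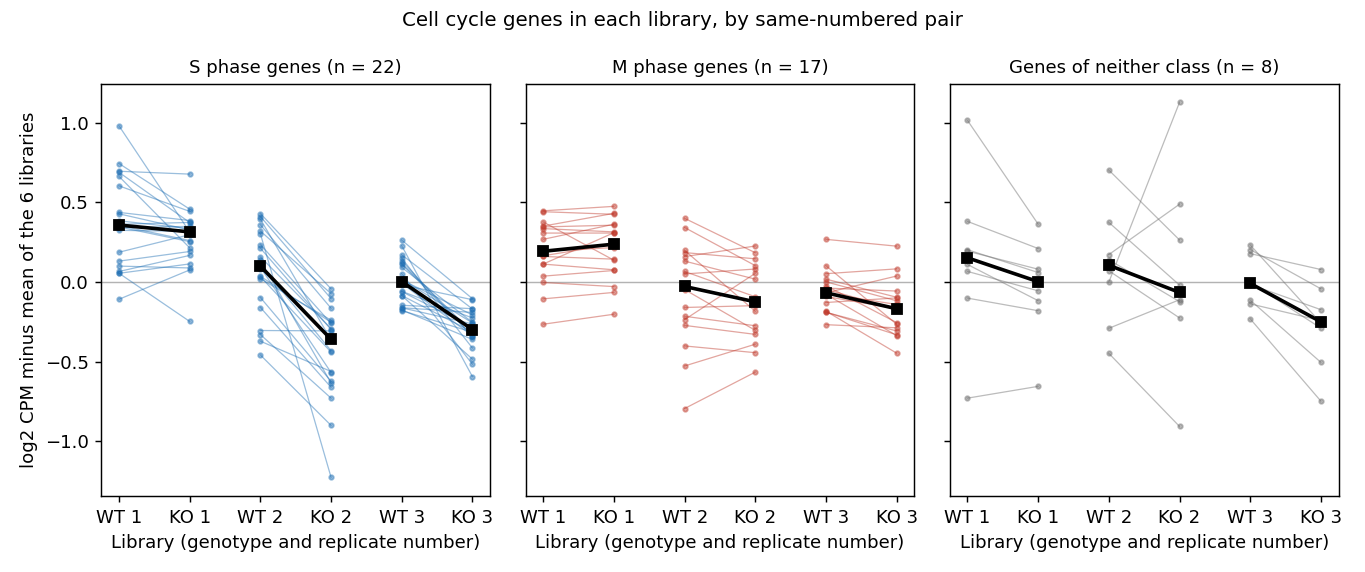
Log2 CPM of each gene minus its mean over the 6 libraries (y axis), with WT and LSD1 KO libraries of the same replicate number side by side and joined. Thin lines are genes and black squares are medians, and the S phase median lies lower in LSD1 KO than in WT with pair medians of -0.05, -0.49 and -0.30 in pairs 1, 2 and 3.

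Among the E2F and RB regulators, all 5 genes were below 0 without any being called. E2F1, an activator of the G1/S genes, stood at 49.3, 62.3 and 51.4 CPM in WT and at 51.3, 36.8 and 38.1 CPM in LSD1 KO libraries 1, 2 and 3. LSD1 KO library 1 lay inside the WT range and the other 2 lay below it. The log2 fold change of E2F1 was -0.37 (SE 0.19) without the block and -0.38 (SE 0.15, edgeR q = 0.32) with it. E2F7, an atypical E2F that represses E2F targets, stood at 70.6, 33.8 and 43.3 CPM in WT and at 56.8, 29.7 and 40.5 CPM in LSD1 KO libraries. It followed the replicate number, with library 1 highest and library 2 lowest in both groups, and its log2 fold change of -0.22 (SE 0.32) became 0.13 without WT library 1. E2F2 and the atypical E2F8 had log2 fold changes of -0.27 and -0.37, and RB1, the pocket protein that binds E2F, had -0.07.

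The CDK inhibitors had no common direction. CDKN2A, which encodes p16 and ARF, stood at 54.3, 84.4 and 44.2 CPM in WT and at 49.9, 62.3 and 30.9 CPM in LSD1 KO libraries. It was lower in LSD1 KO in each pair, by -0.12, -0.44 and -0.52 on the log2 scale (blocked log2 fold change -0.36, SE 0.11, edgeR q = 0.196). Without the block its value was -0.35, and -0.048 without WT library 2. CDKN2B, which encodes p15, was scarce, at 4.04, 6.70 and 7.59 CPM in WT and 4.26, 14.7 and 7.08 CPM in LSD1 KO libraries. Its log2 fold change of 0.50 (SE 0.45) rested on LSD1 KO library 2 and was -0.13 without it. CDKN1B, which encodes p27, had a log2 fold change of 0.08 (SE 0.23). CDKN2A and CDKN2B are neighbours on chromosome 9, and 6.86% of the 31-base words of CDKN2A transcripts occur in CDKN2B.

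The cyclins and CDKs held both genes called with the block. CCNE2, which encodes a cyclin E that activates CDK2 at the G1/S transition, stood at 27.1, 16.9 and 16.1 CPM in WT and at 17.1, 5.86 and 9.09 CPM in LSD1 KO libraries 1, 2 and 3. The groups overlapped only through LSD1 KO library 1, which lay just above WT libraries 2 and 3, and LSD1 KO was lower in each pair, by -0.67, -1.53 and -0.82 on the log2 scale. LSD1 KO cells held 53.3% of the WT mean (20.0 ± 6.13 against 10.7 ± 5.76 CPM, SD, n = 3 libraries per group). The log2 fold change was -0.91 (SE 0.39, edgeR q = 0.999) without the block and -0.99 (SE 0.18, edgeR q = 0.0533) with it. CCNE2 (chr8:94880224-94896693, GRCh38) shares exon sequence with INTS8 on the opposite strand, which holds 56.5% of its 31-base words, and the library kit is not stated to mark strand. INTS8 had a blocked log2 fold change of 0.12 (edgeR q = 0.625), and counts of CCNE2 per count of INTS8 were 0.183, 0.161 and 0.142 in WT and 0.116, 0.0467 and 0.0748 in LSD1 KO libraries. Every LSD1 KO ratio lay below every WT ratio, and the share of genes with such a separation of ratios was not examined. Counts of CCNE2 per count of CCNE1 overlapped, at 0.911, 0.439 and 0.556 in WT and 0.708, 0.211 and 0.366 in LSD1 KO libraries. The ratios of CDK6 to CDK4 and of RRM2 to RRM1 overlapped as well.

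CDK6, a cyclin D partner in G1, stood at 253.5, 91.9 and 147 CPM in WT and at 161, 66.8 and 105 CPM in LSD1 KO libraries. The groups overlapped widely, because replicate 1 was highest and replicate 2 lowest in both, but the pairs differed by nearly equal steps of -0.65, -0.46 and -0.49 on the log2 scale. LSD1 KO cells held 67.6% of the WT mean, and the log2 fold change was -0.57 (SE 0.41, edgeR q = 0.999) without the block and -0.53 (SE 0.09, edgeR q = 0.0381) with it. CDK6 (chr7:92604921-92836573, GRCh38) has a canonical transcript of 11663 bases. Without the block the value was -0.11 when WT library 1 was left out. With the block and without both libraries of the number 3, the call was lost (edgeR q = 0.155) at a log2 fold change of -0.55. CDK4, its paralog, stood at 181, 204 and 146 CPM in WT and at 164, 156 and 111 CPM in LSD1 KO libraries. The blocked log2 fold change of CDK4 was -0.31 (SE 0.09, edgeR q = 0.201, DESeq2 q = 0.0931 with the block). TSPAN31, on the opposite strand, holds 54.0% of the 31-base words of CDK4 and had a log2 fold change of -0.02.

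**Figure D3:**
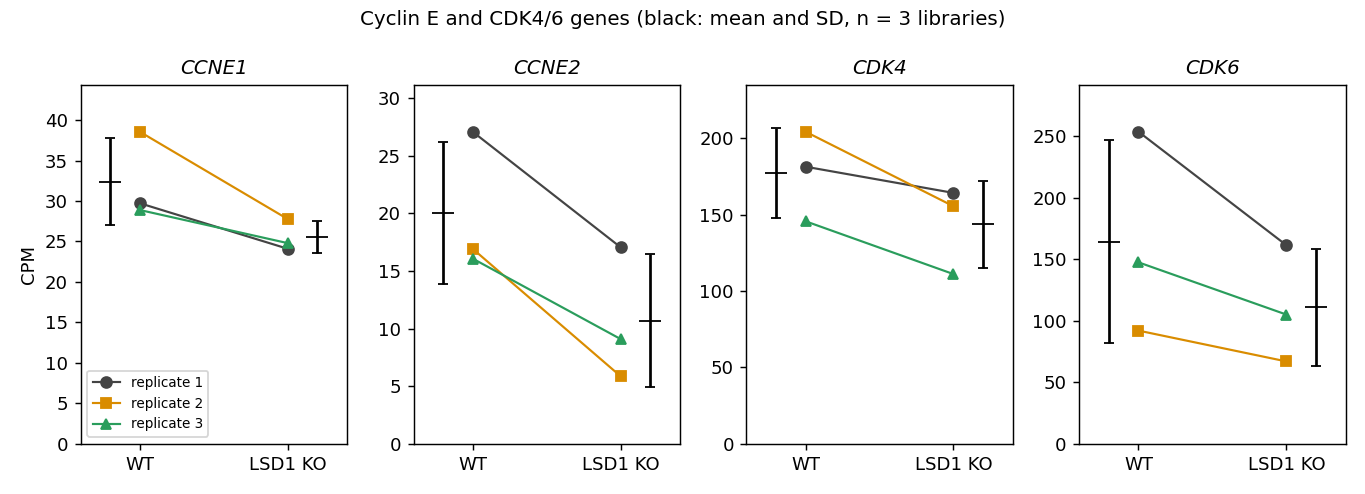
CPM of CCNE1, CCNE2, CDK4 and CDK6 (y axes start at 0) in WT and LSD1 KO libraries, with lines joining libraries of the same replicate number and black bars for mean and SD (n = 3 libraries). Every line slopes down, and the replicates of CDK6 are spread more widely than the genotypes.

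For 2 of the 47 genes, CCND1 and CCNE1, no LSD1 KO library reached the lowest WT library, near the share of all genes (background 3.51%). For 0 genes every LSD1 KO library lay above every WT library (background 4.23%). CCND1, which encodes the G1 cyclin D1, stood at 695, 676 and 742 CPM in WT and at 594, 551 and 625 CPM in LSD1 KO libraries. Its pairs differed by -0.23, -0.30 and -0.25 on the log2 scale, and its blocked log2 fold change was -0.26 (SE 0.08, edgeR q = 0.226). CCNE1, the other cyclin E gene, stood at 29.7, 38.6 and 28.9 CPM in WT and at 24.1, 27.8 and 24.8 CPM in LSD1 KO libraries (blocked log2 fold change -0.33, SE 0.10, edgeR q = 0.217). Neither gene passed the threshold in either edgeR fit, and 3 libraries against 3 allow no two-sided exact permutation p below 0.1. CDK2 had a log2 fold change of -0.22, and the M phase members of this group, CCNA2, CCNB1, CCNB2 and CDK1, ranged from -0.20 (CCNB1) to 0.08 (CCNB2).

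The 8 licensing genes were all below 0, with a median of -0.24. They load the MCM helicase onto origins (CDC6 and CDT1) or are its subunits. MCM5 stood at 208.5, 183 and 170.0 CPM in WT and at 195.5, 134 and 115 CPM in LSD1 KO libraries, with a blocked log2 fold change of -0.37 (SE 0.11, edgeR q = 0.196, DESeq2 q = 0.0557 with the block). MCM4 stood at 453, 357 and 332.5 CPM in WT and at 437, 225 and 265 CPM in LSD1 KO libraries (-0.35, SE 0.12, edgeR q = 0.266, DESeq2 q = 0.0928 with the block). In both genes LSD1 KO library 1 lay inside the WT range and the other 2 libraries lay below it. The pair medians of the licensing genes were -0.02, -0.52 and -0.25. The remaining subunits had log2 fold changes of -0.29 (MCM2), -0.18 (MCM3), -0.24 (MCM6) and -0.19 (MCM7), beside -0.19 for CDC6 and -0.23 for CDT1.

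The 7 genes of DNA synthesis and repair were also all below 0, with a median of -0.23. BRCA2, which acts in homologous recombination, stood at 53.6, 23.3 and 38.4 CPM in WT and at 43.9, 17.1 and 29.8 CPM in LSD1 KO libraries. Its pairs differed by -0.29, -0.44 and -0.37 on the log2 scale, less than its replicates within a group (blocked log2 fold change -0.36, SE 0.10, edgeR q = 0.164). Without the block its value was -0.34, and -0.027 without WT library 1. POLA1, the catalytic subunit of DNA polymerase alpha, had a blocked log2 fold change of -0.37 (SE 0.10, edgeR q = 0.178). PCNA (-0.22), the sliding clamp, TYMS (-0.24), the thymidylate synthase, and the ribonucleotide reductase subunits RRM1 (-0.13) and RRM2 (-0.18) had smaller blocked values, as did BRCA1 (-0.14). TYMS shares 55.9% of its 31-base words with ENOSF1 on the opposite strand, which also lay below 0 (blocked log2 fold change -0.14, edgeR q = 0.582).

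The mitotic transcription factors were FOXM1 and MYBL2. FOXM1 stood at 113, 84.2 and 93.4 CPM in WT and at 95.7, 70.5 and 72.4 CPM in LSD1 KO libraries. It was lower in each pair, by -0.24, -0.26 and -0.37 on the log2 scale, but was not called (blocked log2 fold change -0.29, SE 0.09, edgeR q = 0.202). MYBL2 had a blocked log2 fold change of -0.29 (SE 0.13), with 0.10 in pair 1. Of the 12 genes of mitosis itself, 6 were below 0 and 6 were not, with a median of -0.02. BIRC5, which encodes survivin of the chromosomal passenger complex, stood at 208, 264 and 197.5 CPM in WT and at 204, 224 and 165 CPM in LSD1 KO libraries, the largest difference of the group (-0.18, SE 0.19, blocked edgeR q = 0.45). MKI67, the proliferation marker Ki-67, stood at 750, 318 and 665 CPM in WT and at 741, 373 and 645 CPM in LSD1 KO libraries. Its log2 fold change of 0.02 (SE 0.36) was far smaller than the gap between its replicates, and with the block it was 0.06 (SE 0.09, edgeR q = 0.837). The spindle genes KIF11 (-0.03), CENPE (-0.03), CENPF (0.08), the checkpoint kinases BUB1 (0.11) and BUB1B (0.03), and AURKA (-0.05), AURKB (-0.11), PLK1 (-0.13), TOP2A (0.06) and CDC20 (0.00) made up the rest. Sequence shared with other genes covers 25.5% of the 31-base words of CDC20 (its pseudogene CDC20P1), 22.5% of AURKA, 20.6% of FOXM1 (ITFG2) and 30.2% of MCM2, so counts of these genes are less certain.

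Genes of the same pathways outside the set were listed likewise. Of 54 other S phase genes, 53 had log2 fold changes below 0, with a median of -0.23. Their pair medians were -0.04, -0.45 and -0.20 in pairs 1, 2 and 3. They were measured in the same 6 libraries as the set, so they are not independent replicates of its shift. None of the 54 had a q value under 0.1 in either edgeR fit (0 genes), with 28 lower and 0 higher at an unadjusted p under 0.05 with the block. DESeq2 with the block called 6 of the 54 lower and 0 higher (background 1.68% lower and 2.53% higher). Of 55 other M phase genes, 22 were below 0, with a median of 0.04, 0 were called in either edgeR fit, and 3 lower and 4 higher genes had an unadjusted p under 0.05 with the block, where all genes gave 6.19% lower and 7.24% higher. DESeq2 with the block called 1 of the 55 lower (TMPO) and 1 higher (CDC25B), near the background of 1.68% lower and 2.53% higher. The 5 subunits of the DREAM and MuvB complexes had a median of -0.07 and the 6 other E2F and DP factors a median of -0.11, with 0 called in either list.

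To examine the genes across replicate numbers, differences between the numbers 1, 2 and 3 were tested in edgeR with the genotype in the model, which called 39 of the 47 genes (background 41.2%). They were 18 of 22 S phase genes, 15 of 17 M phase genes and 6 of 8 genes of neither class, and DESeq2 called 39 as well. The 47 genes had WT means of 6.11 to 704 CPM. The background genes, here and by length class below, were not matched for level, which bears on how readily a gene is called. Without LSD1 KO library 3, 25 of the 47 were called, and the share of all genes in that fit was not examined. Library 1 was the highest of its group in both genotypes for 30 of the 47 genes (63.8%), against 21.9% of all genes tested. This held for 15 S phase genes and 12 M phase genes. Library 2 was lowest in both for 14 genes (29.8%, against 26.0% of all genes) and highest in both for 7 (14.9%, against 25.1%). Library 3 was lowest in both for 17 genes (36.2%, against 14.0%).

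The genes that library 2 separated from the others were ordered by transcript length. The difference between replicate 2 and the mean of replicates 1 and 3, a contrast chosen because earlier results of these data had singled out replicate 2, was lower at a q value under 0.1 for 18 genes (background 18.1%) and higher for 9 (background 20.6%). The longest transcripts had the lowest values, with -1.02 for MKI67 (12716 bases), -1.02 for BRCA2 (11954 bases) and -1.02 for CDK6 (11663 bases) on the log2 scale. CENPF (10290 bases), a kinetochore protein, had -0.69. The highest values belonged to CDKN2B (0.89, 3853 bases), CDKN2A (0.72, 978 bases) and CDKN1B (0.50, 2411 bases), followed by AURKB (0.44, 1243 bases). All 11 genes with canonical transcripts of 5000 bases or more were called lower in replicate 2, with a median of -0.69, against 41.6% of all genes in that class. All 9 genes under 2000 bases were above 0, with a median of 0.27, and 6 of them were called higher, against 34.1% of all genes in that class.

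Across the 47 genes, Pearson's r between the replicate 2 difference and log2 transcript length was -0.836 (Spearman's rho -0.848). These points share 6 libraries, and genes are not independent replicates. Pearson's r was -0.877 (rho -0.846) over the 22 S phase genes and -0.953 (rho -0.919) over the 17 M phase genes. Over 17459 genes tested it was -0.18 (rho -0.315). The S phase gene POLA1 (5487 bases) had -0.62, and the M phase gene CENPE (8541 bases), a kinetochore motor, had -0.63. The difference between LSD1 KO and WT had r = 0.048 with length over the same 47 genes. With length and GC content of the transcripts fitted out of each library, r was -0.611, and 12 genes were called lower (11.7% of all genes) and 7 higher (20.7% of all genes) in replicate 2. In that fit with the block, all 22 S phase genes stayed below 0, and CCNE2, CDK6 and CDKN2A were called lower in LSD1 KO cells, against 0.877% of all genes.

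**Figure D4:**
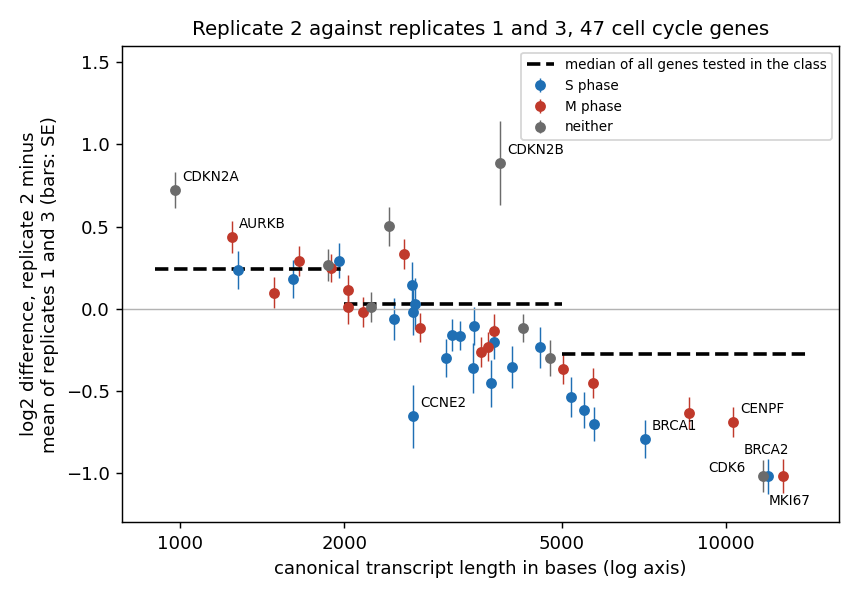
Log2 difference between replicate 2 and the mean of replicates 1 and 3 (y axis, bars are standard errors) against canonical transcript length in bases (log axis) for the 47 genes, coloured by phase, with dashed lines for the median of all genes tested in each length class. The values descend from 0.72 for CDKN2A to -1.02 for MKI67, with CDKN2B (0.89) above and CCNE2 (-0.66) below genes of like length, and the dashed medians descend less steeply.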

How the data were processed

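RNA-seq was carried out on 3 WT and 3 LSD1 KO HCT116 libraries. Per the labels, the authors used FastQC, Trimmomatic 0.39 and Salmon 1.4.0 on GRCh38, and the deposited table gives each gene's expected counts, as whole numbers and not scaled for depth. The step from transcripts to genes is not given in the sources used here. Salmon shares reads among transcripts of overlapping or similar genes, so such counts are estimates.

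Counts were analysed with edgeR 4.0.16 in R 4.3.3 (TMM, filterByExpr by group, quasi-likelihood test, Benjamini-Hochberg adjustment over 17672 genes, q under 0.1). DESeq2 1.42.0 and the replicate number as a block were alternatives, as were other size factors, other filters, a length and GC correction and leaving out each library. CPM values use TMM-scaled library sizes. Standard errors come from the log2 fold change and its F statistic. The numbers 1, 2 and 3 were taken to pair WT and LSD1 KO libraries, because deviations from the group means had Pearson's r of 0.553, 0.553 and 0.404 over genes for the same number and -0.516 to 0.0454 otherwise. Deviations sum to 0 within a group, so positive values for the same number push the others down, and these add no separate support. The sources do not state the pairing, which was read from these same data. Transcript lengths and shared words of 31 bases came from GENCODE v44lift37, gene positions and promoters from RefSeq on GRCh38. Figures used Python 3.11.15 and matplotlib 3.10.9. The steps were tested on simulated data.

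The members, their phase classes, the contrast of replicate 2 and the other gene lists were chosen with earlier results of these data known. Library values are given for KDM1A, for members called between genotypes, and in each role for the members with the largest log2 fold change and the smallest p across replicate numbers. CDK4, CCND1 and CCNE1 were added after their values were seen.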

Additional observations from a re-analysis of the deposited data

How the results depend on the processing

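Without the block, 1 gene was called between LSD1 KO and WT. This count was 114 without a filter on low counts, 95 with DESeq2, 282 with the replicate block, 597 with DESeq2 and the block, 4 with the length and GC correction and 409 with that correction and the block. With the block and without both libraries of a number it was 428 (number 1), 1055 (number 2) and 198 (number 3). Among the 47 cell cycle genes 0 were called without the block and 2 with it (CCNE2 and CDK6), against 0.00566% and 1.6% of all genes. DESeq2 with the block called 5 (4.21% of all genes), and the block with the length and GC correction called 3 (2.31%). With the block and without the numbers 1, 2 and 3, 8, 5 and 1 of the 47 were called (2.4%, 5.85% and 1.12% of all genes). CCNE2 was called in each of these blocked fits. The fits by number 1 and 3 and the length and GC corrections were chosen after seeing the data. Leaving out each library in turn gave 1 to 26 genes called, 26 being without LSD1 KO library 2, and 0 cell cycle genes called. The count of the 47 called across replicate numbers ranged from 25 to 41, and the share of all genes with a library left out was not examined. Between LSD1 KO and WT, the S phase median ranged from -0.47 to -0.13 and the M phase median from -0.14 to 0.092. The M phase median for replicate 2 was -0.11, and it was -0.10 with RLE and -0.13 with upper-quartile size factors, -0.087 without a filter, -0.14 with at least 10 counts in every library, -0.090 with DESeq2, -0.032 with the length and GC correction and -0.12 to -0.083 with a library left out. CDKN2B turned to -0.038 with the block and without the number 2 and ranged from -0.13 (without LSD1 KO library 2) to 0.83 with a library left out, and E2F7 ranged from -0.49 to 0.13 (without WT library 1). MKI67 turned to -0.047 with the block and without the number 2, and ranged from -0.28 (without WT library 2) to 0.26 (without WT library 1), being also below 0 without LSD1 KO libraries 1 (-0.18) and 3 (-0.057). The cause of these changes was not tested. Against the fit without the block, the other results kept their direction and their side of the threshold or gained a call. The blocked call of CDK6 was lost without the number 3 (edgeR q = 0.155). CDKN2B had the lowest WT mean of the set, 6.11 CPM.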

Other observations

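CDK inhibitors and pocket proteins outside the set were examined as 6 genes. Of these, 4 had log2 fold changes above 0, with a median of 0.18, and 0 had a q value under 0.1 in either edgeR fit, while 3 higher and 0 lower genes had an unadjusted p under 0.05 with the block (7.24% and 6.19% of all genes). DESeq2 with the block called 1 of the 6 higher, CDKN1A (background 2.53% higher). CDKN1A, which encodes the CDK inhibitor p21, stood at 211, 241 and 213 CPM in WT and at 273, 294 and 303 CPM in LSD1 KO libraries 1, 2 and 3. No LSD1 KO library overlapped the WT range (background 4.23% of genes with every LSD1 KO library above WT), and the blocked log2 fold change was 0.39 (SE 0.09, edgeR q = 0.114). RBL2, the pocket protein p130, had a blocked log2 fold change of 0.24 and CDKN2D, which encodes p19, of 0.34, with edgeR q values of 0.285 and 0.301. CCND3, another G1 cyclin, had -0.27 (edgeR q = 0.287). The choice of these names was made after seeing their values.

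Among the marker lists, edgeR with the block called 2 genes, EPCAM lower and COL1A1 higher (background 0.549% lower and 1.05% higher). EPCAM, an epithelial adhesion protein, stood at 191, 248 and 173 CPM in WT and at 134, 77.6 and 101 CPM in LSD1 KO libraries (log2 fold change -0.98, edgeR q = 0.0788). COL1A1, a fibrillar collagen, stood at 20.4, 23.8 and 23.9 CPM in WT and at 30.1, 33.2 and 34.0 CPM in LSD1 KO libraries (0.52, edgeR q = 0.0628). The groups did not overlap in either gene (background 3.51% of genes with every LSD1 KO library below WT and 4.23% above). DESeq2 with the block called COL1A1 (q = 0.0247) but not EPCAM (q = 0.162). It also called KRT19 (0.45, q = 0.00373) and CD68 (0.68, q = 0.0172) higher in LSD1 KO cells (background 2.53% higher).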
